A study of Mus musculus with 3 samples.

Results

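The genes described here are 38 autophagy and lysosome control genes of the mouse, from the kinase complex that starts an autophagosome to the membrane proteins of the lysosome. They were taken from a list of gene symbols, each matched to its gene identifier in the deposited transcript tables, and all 38 were found among the 55536 mouse genes of the gene table. The RNA was polyadenylated RNA of regulatory T cells, a CD4+ lineage that depends on the transcription factor Foxp3 and restrains immune responses. The cells came from a male adult mouse of 4 months that carried a Foxp3CreERT2 allele, which places an inducible Cre recombinase under Foxp3 control, and a Rosa26YFP reporter; the labels trace the cells to a bone marrow hematopoietic cell. The 3 libraries are technical replicates 1, 2 and 3 of biological replicate 1 and form a single group, so no conditions can be compared, and every SD and p-value below measures the spread between these libraries and not between animals. In bulk RNA, fewer cells of a type and less RNA per cell cannot be told apart.

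In macroautophagy a double membrane grows around cytoplasm, closes into an autophagosome and fuses with a lysosome, where the contents are degraded. A kinase complex around ULK1 starts the membrane, a lipid kinase complex marks it with phosphatidylinositol 3-phosphate, lipids flow in through ATG2, and ubiquitin-like proteins of the ATG8 family are attached to it by enzymes that resemble those of ubiquitination. T cells use the pathway for survival and metabolic control, and deletion of Atg5 or Atg7 in mouse regulatory T cells is known to impair their stability.

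The gene tables held 9299054 expected counts for replicate 1, 9188612 for replicate 2 and 8284381 for replicate 3. Replicate 1 stood apart in the spread over genes of at least 30 counts. Their coefficient of variation between libraries beyond counting error was the square root of edgeR's common dispersion, 1 estimate for all these genes. It was 20.2% with all 3, 12.4% without replicate 1, 22.7% without replicate 2 and 22.5% without replicate 3. All 7 regulatory T cell markers were detected, with summed levels of 4022, 4255 and 3903 TPM, a level per base of transcript scaled to library depth, in replicates 1, 2 and 3, and Foxp3 itself at 27.6, 43.7 and 47.1 TPM. Markers of other cells were also present, with lower sums that were uneven between libraries. The 6 erythroid markers summed to 1685, 9.02 and 1497 TPM in replicates 1, 2 and 3, so here replicate 2 stood apart. Single markers were not all low. Hbb-bs was at 603, 2.66 and 464 TPM, and the plasma cell marker Jchain at 98.5, 4.42 and 79.7 TPM. Both lay above Foxp3 in replicates 1 and 3 and below it in replicate 2. Why libraries labelled technical replicates of 1 sample differed so was not tested. All 6 B cell markers were detected and summed to 151.9, 119.3 and 197.2 TPM. Of 5 plasma cell markers 4 were detected, with sums of 140.6, 59.4 and 137.0 TPM. Of 6 macrophage and monocyte markers 4 were detected, with sums of 24.98, 18.09 and 38.47 TPM. None of the 6 neutrophil markers reached 1 TPM in every library, their sums were 40.1, 0.60 and 4.09 TPM, and Elane was at 0 in all 3. None of the 4 progenitor markers reached 1 TPM in every library, and Gata2 was at 0 in all 3. The part of these cells in the levels below was not tested.

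Nearly the whole pathway was expressed, and its RNA was concentrated in one family. A level of at least 1 TPM in every library was reached by 35 of the 38 genes, against 45.9% of the 22028 protein-coding genes. Wipi1, Optn and Atg4c fell short of it. The median of the 38 mean levels was 15.4 TPM, against 20.1 TPM over the detected protein-coding genes, and 17 of the 38 lay above that second value. Together the 38 genes summed to 1541, 1682 and 1583 TPM in replicates 1, 2 and 3 (mean 1602 ± 72.3, SD over the 3 libraries, as for every ± below). The 5 ATG8 genes held 51.2% of that sum. The class III PI3-kinase complex held 11.8%, the conjugation enzymes 8.69%, the ATG4 proteases 7.39%, the initiation complex 6.90%, the cargo receptors 6.83%, the TFEB/TFE3 and LAMP genes 4.87% and the lipid supply step 2.36%. Within the steps, 18 of 30 pairs of genes next to each other in rank had ranges that did not overlap over the 3 libraries.

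**Figure D1:**
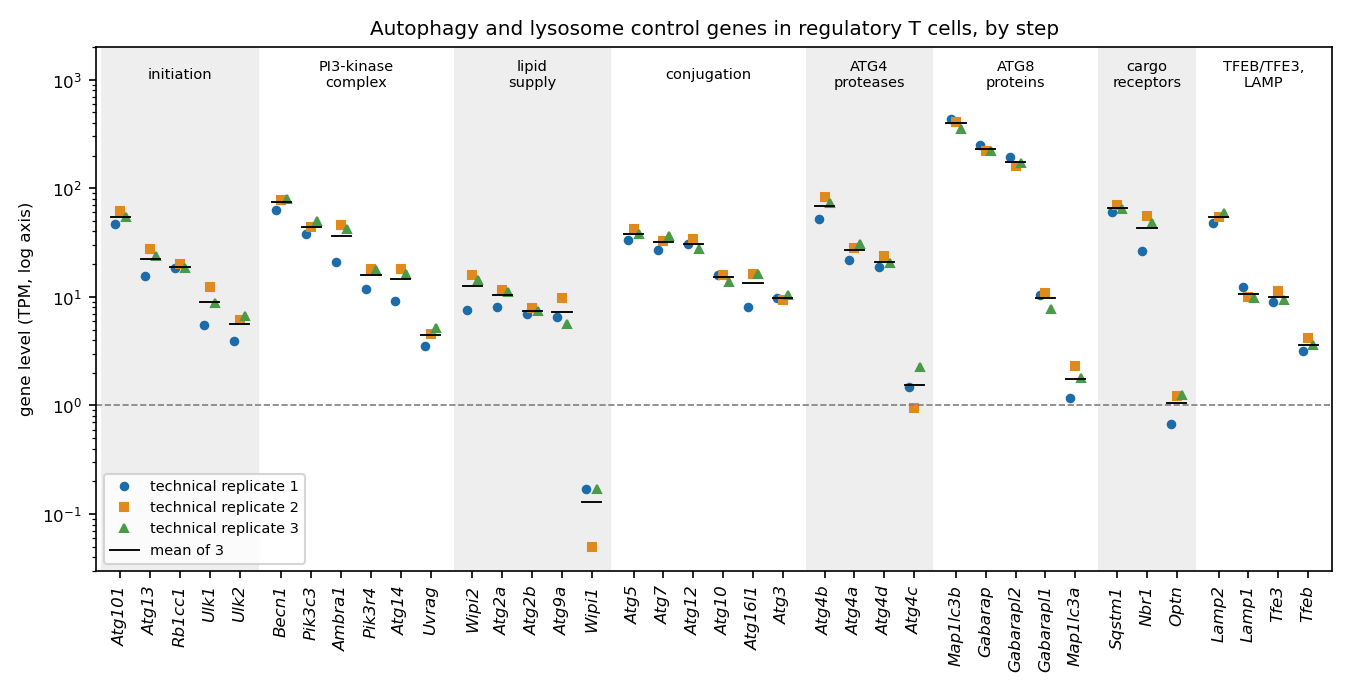
Level of each of the 38 genes in TPM (log axis), grouped by step and ordered by mean level within a step; symbols are the 3 technical replicates, short lines their means, and the dashed line the detection level of 1 TPM. Map1lc3b, Gabarap and Gabarapl2 stand above all other genes, and Wipi1 lies below 1 TPM in all 3 libraries.

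The initiation complex was led by its smallest subunit. Atg101, which stabilises ATG13 and lies at chr15:101284272-101290945 in mm10, was at 47.0, 62.3 and 54.9 TPM in replicates 1, 2 and 3. The scaffold gene Atg13 averaged 22.4 ± 6.15 TPM and Rb1cc1, which encodes the large scaffold FIP200, 18.9 ± 0.854 TPM. Their ranges overlapped, while Atg101 lay above both in every library. The kinases themselves were lowest in RNA. Ulk1 (chr5:110784488-110810097) was at 5.52, 12.4 and 8.82 TPM, and Ulk2 at 3.90, 6.10 and 6.71 TPM. The Ulk1 level exceeded that of Ulk2 within each library, by 1.59 ± 0.386 times, though their ranges overlapped, and the deposited whole-number counts per base of gene length put the order the other way at 0.817. The apparent spread of Ulk1 lay largely in short transcripts annotated as retained introns. Its full-length transcript Ulk1-201 was at 4.10, 6.08 and 5.81 TPM, while Ulk1-208, a 613-base retained intron, was at 0, 3.41 and 1.00 TPM. Counts of Ulk1 scaled for library size were 175, 213 and 200 and did not pass the test between libraries described below (adjusted p = 0.195, chi-square test with edgeR's TMM scaling).

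Becn1 had the highest level of the lipid kinase step, but most of it was assigned to transcripts that do not encode the full protein. Becn1, the regulatory subunit beclin 1 (chr11:101285952-101302286), was at 63.4, 78.6 and 80.4 TPM in replicates 1, 2 and 3. Pik3c3, the catalytic subunit VPS34, averaged 43.7 ± 5.93 TPM, below Becn1 in every library. The leading Becn1 transcript, Becn1-201, held 43.3 ± 4.27% of the gene's TPM and is annotated as a target of nonsense-mediated decay, with a reading frame of 105 codons against 448 in the coding transcript Becn1-205. Transcripts annotated as protein coding gave Becn1 12.1 ± 1.29 TPM and Pik3c3 43.2 ± 6.67 TPM, which reversed their order. The labels do not state whether counting used strand, and if it did not, reads from the opposite gene Cntd1, which overlaps 3104 exon bases of Becn1, cannot be told apart from Becn1 reads. Cntd1 itself was at 0.16 TPM or less.

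The rest of the lipid kinase step spread over a wide range. Ambra1, a scaffold that binds beclin 1, was at 20.9, 46.0 and 42.4 TPM in replicates 1, 2 and 3. Atg14, the subunit that directs the kinase to the forming autophagosome, was at 9.17, 18.2 and 16.2 TPM. Uvrag, the subunit of the endosomal form of the complex, was lowest at 3.56, 4.53 and 5.17 TPM. Ambra1 and Atg14 were both lower in replicate 1 than in either other library, and Atg14 exceeded Uvrag in every library. Pik3r4, the scaffold subunit VPS15, averaged 15.8 ± 3.50 TPM. Only 35.2% of the Pik3r4 level and 27.2% of the Uvrag level came from protein-coding transcripts, and both genes were led by a retained-intron transcript, Pik3r4-211 at 40.5 ± 7.43% and Uvrag-202 at 28.6 ± 8.45%. The antisense gene Gm45187 overlaps 1589 exon bases of Uvrag and was at 0.18 to 0.89 TPM.

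Among the 38 genes, lipid supply was the step with the lowest summed level, and there Wipi2 was detected and Wipi1 was not. Wdr45 and Wdr45b, further genes of the WIPI family, are not in that sum but in the list of other core genes below. Wdr45 was at 41.7, 60.1 and 51.1 TPM in replicates 1, 2 and 3, and Wdr45b at 18.9, 21.5 and 22.6 TPM. Both lay above Wipi2 in every library. Wipi2, which binds phosphatidylinositol 3-phosphate and recruits ATG16L1 (chr5:142627698-142670588), was at 7.55, 15.8 and 14.2 TPM in replicates 1, 2 and 3. Wipi1 was at 0.17, 0.05 and 0.17 TPM, from 3, 1 and 2 expected counts. Wipi2 exceeded Wipi1 by 44.4, 317 and 83.2 times in the 3 libraries, a ratio whose denominator rests on those few counts. The lipid transfer gene Atg2a was at 8.13, 11.6 and 11.2 TPM. Its paralog Atg2b averaged 7.47 ± 0.465 TPM, and Atg2a exceeded it by 1.37 ± 0.187 times over all transcripts and by 2.67 ± 0.773 times over protein-coding transcripts. The leading Atg2b transcript, Atg2b-205 at 56.2 ± 4.63%, is a processed transcript with no reading frame. Atg9a, the lipid scramblase carried on the seed vesicles, averaged 7.31 ± 2.19 TPM, and part of its exons is shared with the same-strand gene Gm29253.

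All 6 conjugation genes were detected. Atg5, which is joined to ATG12 and forms the E3-like enzyme with ATG16L1 (chr10:44268358-44364291), was at 33.3, 42.6 and 38.01 TPM in replicates 1, 2 and 3. The E1-like activating enzyme gene Atg7 averaged 32.1 ± 4.67 TPM and Atg12 30.8 ± 3.37 TPM. The ranges of Atg5 and Atg7 overlapped, as did those of Atg7 and Atg12. Atg10, the E2-like enzyme for ATG12, was at 15.8, 15.8 and 13.7 TPM. Atg3, the E2-like enzyme that hands ATG8 proteins to the lipid, had the lowest mean of the step, at 9.72, 9.34 and 10.4 TPM. Atg16l1, which places the E3-like complex on the membrane, averaged 13.4 ± 4.71 TPM. Its range overlapped that of Atg3, and over protein-coding transcripts it lay below Atg3, at 8.38 against 8.96 TPM. Its leading transcript was Atg16l1-202 at 58.0%, 14.4% and 37.0% of the gene, with Atg16l1-201 at 17.3%, 47.6% and 19.5%. Those 2 transcripts traded places between technical replicates of 1 sample, and the second transcript table led with the retained-intron transcript Atg16l1-209 instead.

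Of the 4 ATG4 proteases, which trim newly made ATG8 proteins and release them from membranes, Atg4b had the highest gene level. It was at 52.0, 82.2 and 72.6 TPM in replicates 1, 2 and 3 (chr1:93751500-93790610), 1.39 ± 0.162 times the sum of the other members. Over protein-coding transcripts that ratio was 1.05 ± 0.193, and 0.832 in replicate 3, since 53.1% of the Atg4b level was protein coding. The Atg4b transcript with the longest reading frame, Atg4b-201, was at 13.65, 19.17 and 16.99 TPM in replicates 1, 2 and 3. That was below Atg4a-201, at 20.84, 27.92 and 29.44 TPM, in every library. Atg4a averaged 26.9 ± 4.65 TPM and Atg4d 20.9 ± 2.41 TPM. Atg4c was the lowest protease at 1.47, 0.94 and 2.26 TPM, from 33, 17 and 40 expected counts. The opposite-strand gene Kri1 overlaps 1405 exon bases of Atg4d and was expressed at 24.2 to 35.8 TPM, so the Atg4d level may hold reads of Kri1.

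The ATG8 genes carried the highest levels of the pathway. Map1lc3b, the LC3 protein most used to mark autophagosomes (chr8:121590361-121598760), was at 437, 410 and 354 TPM in replicates 1, 2 and 3, at the 97.0th percentile of detected protein-coding genes. Gabarap (chr11:69991143-69994951) was at 252, 222 and 221 TPM, and Gabarapl2 (chr8:111940703-111953612) at 196, 162 and 171 TPM. The ranges of these 3 genes did not overlap. Gabarapl1 followed at 10.5, 10.8 and 7.73 TPM, and Map1lc3a at 1.18, 2.30 and 1.79 TPM from 6, 10 and 7 counts, just above the detection level. Within the LC3 pair, Map1lc3b exceeded Map1lc3a by 249 ± 106 times. Summed levels of the GABARAP genes and of the LC3 genes were near parity, with a ratio of 1.04 ± 0.0823. Over protein-coding transcripts that ratio was 0.659 ± 0.0285, and with the whole-number counts per base of gene length it was 2.55.

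ATG8 precursors are cut by ATG4 behind a glycine, and the exposed glycine is then joined to phosphatidylethanolamine. The coding ends of 4 of the genes, read from GENCODE M21 transcripts on mm10, are shown because they mark which transcripts encode that glycine. Each line gives the last 33 coding bases with the stop codon, 5′ to 3′, and the capitals mark the glycine codon. They lie at chr2:155277605-155277637, chr11:69994492-69994524, chr6:129541135-129541167 and chr8:111952373-111952405, in the order listed and all on the plus strand.
Map1lc3a-201: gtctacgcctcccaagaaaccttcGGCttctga
Gabarap-201: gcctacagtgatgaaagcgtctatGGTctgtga
Gabarapl1-201: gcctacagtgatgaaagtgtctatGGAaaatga
Gabarapl2-201: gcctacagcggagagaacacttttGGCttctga
Each of the 4 has 1 codon between the glycine and the stop. Coding sequences were 76.0% identical between Map1lc3a and Map1lc3b, 74.6% between Gabarap and Gabarapl1, 61.5% between Gabarap and Gabarapl2, and 51.0% to 56.0% between LC3 and GABARAP genes. How reads that match several copies were divided is not stated, so the split between close members is uncertain.

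Transcript assignment changed the picture of the ATG8 genes. The leading Gabarapl2 transcript was Gabarapl2-203, annotated as a retained intron, with 73.3%, 72.0% and 73.4% of the gene's TPM in replicates 1, 2 and 3. The coding transcript Gabarapl2-201 held 26.4%, 27.7% and 26.4%. In the second transcript table, Gabarapl2-203 held 64.0 ± 1.51%, so both tables put the larger share on the same non-coding transcript. Gabarapl2-203 is 749 bases long and shares 657 of them with the 1677-base Gabarapl2-201, which leaves 92 bases of its own. Its start of exon 2 is shown with the bases before it, at chr8:111941130-111941171 on the plus strand. Capitals mark bases of exon 2, and lower case marks bases of the intron before it. Gabarapl2-203 shares no bases with Gabarapl2-201 before this boundary. It thus lacks exon 1 of Gabarapl2-201 and holds at most its 92 own bases of the intron.
Gabarapl2-203: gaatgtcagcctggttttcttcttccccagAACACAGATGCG
Counted by protein-coding transcripts alone, Gabarapl2 stood at 51.6, 44.7 and 45.1 TPM, Gabarap at 218, 205 and 189 TPM, and Map1lc3b at 434, 406 and 349 TPM. The order of the 3 genes did not change in that count. In the whole-number counts it did. Gabarap had 2339, 1669 and 1509 counts in replicates 1, 2 and 3, above Map1lc3b at 1705, 1238 and 996. Gabarap is also the shorter gene, with a mean length of 1071 bases against 1531. Whether reads from the bases unique to Gabarapl2-203 or shared bases drove its share cannot be read from these tables.

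The frame holds the glycine codon in only some transcripts of Map1lc3b and Gabarap. Map1lc3b was led by Map1lc3b-203 at 51.4 ± 6.10% in the first transcript table and by Map1lc3b-205 at 50.7 ± 1.05% in the second, where Map1lc3b-203 held 13.02 ± 3.56%. Those 2 short transcripts have reading frames of 66 and 160 codons, against 125 in Map1lc3b-201, and the frames of all 3 hold the glycine codon. Map1lc3b-204, a protein-coding transcript at 1.11 ± 0.310% of the gene, does not hold it. For Gabarap, the coding transcript Gabarap-201 held 49.8 ± 2.68% and Gabarap-202 38.2 ± 4.30%. The exons of Gabarap-202 hold the glycine codon, but its annotated frame of 106 codons does not. The second table gave more to Gabarap-204, a retained intron, at 36.3 ± 4.92%, and 29.8 ± 0.917% to Gabarap-201. In the first table Map1lc3a was assigned wholly to the processed transcript Map1lc3a-202, and its coding transcript was listed at 0. The second table did the same in replicates 1 and 3, but in replicate 2 it gave 81.0% to the processed transcript Map1lc3a-203 and 19.0% to the coding Map1lc3a-201, from few counts. Gabarapl1 was assigned wholly to its coding transcript Gabarapl1-201 in both tables.

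**Figure D2:**
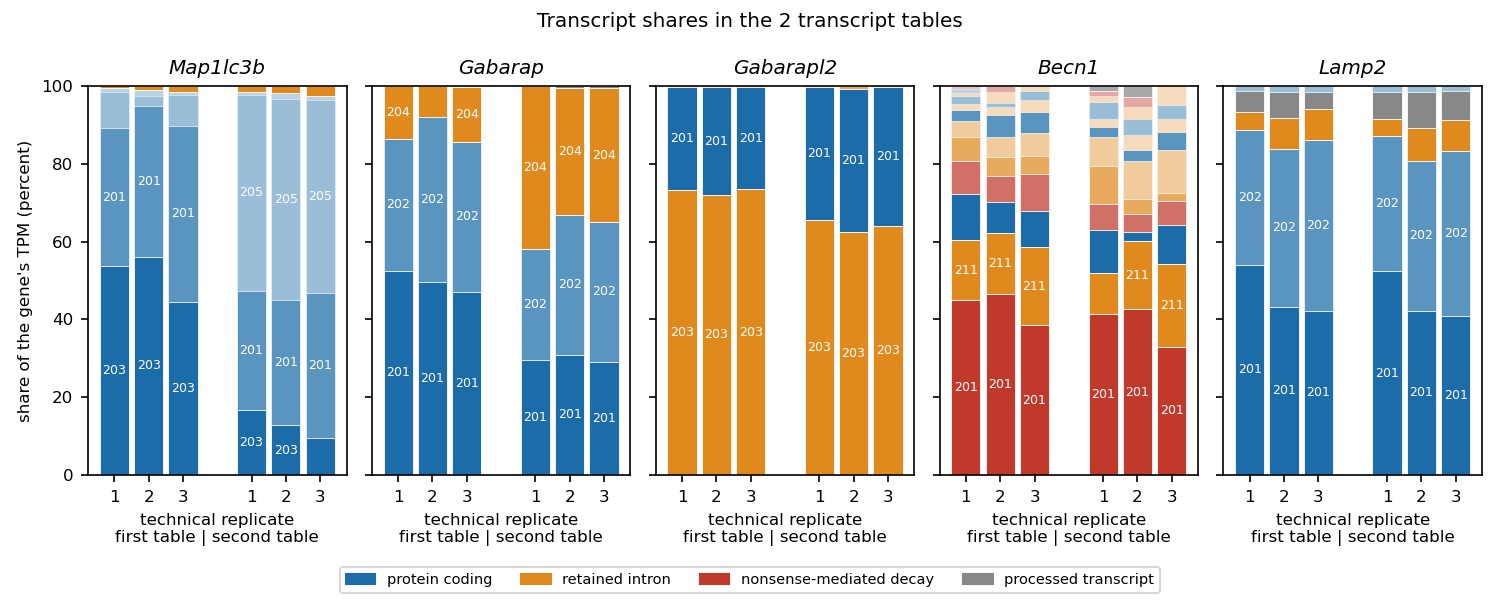
Share of the gene's TPM (percent) held by each transcript of 5 genes in technical replicates 1, 2 and 3, for the first transcript table (left 3 bars of a panel) and the second (right 3 bars); colours give the annotated biotype, shades separate transcripts, and numbers name transcripts with larger shares. Gabarapl2-203 and, by mean share, Lamp2-201 lead in both tables, while the leading transcript of Map1lc3b and Gabarap differs between the tables.

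Cargo receptor RNA was mainly that of Sqstm1 and Nbr1. Sqstm1, which encodes p62, a receptor for ubiquitinated cargo (chr11:50199366-50210827), was at 60.8, 69.8 and 65.1 TPM in replicates 1, 2 and 3. Nbr1, a related receptor that acts with p62, was at 26.2, 55.2 and 48.2 TPM. Optn, the receptor optineurin, was at 0.67, 1.22 and 1.25 TPM from 8, 15 and 11 counts. Ranges of the 3 genes did not overlap, and Nbr1 in replicate 1 lay below its level in both other libraries.

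Among the lysosomal regulators, Tfe3 exceeded Tfeb and Lamp2 exceeded Lamp1. Tfeb and Tfe3 encode related transcription factors that activate lysosomal and autophagy genes. Tfeb was at 3.20, 4.14 and 3.57 TPM in replicates 1, 2 and 3, and Tfe3 averaged 9.90 ± 1.28 TPM, with a ratio of Tfe3 to Tfeb of 2.72 ± 0.0762. Over protein-coding transcripts the ratio was 1.58, and with the posterior mean TPM of the gene table it was 1.05, so the size of the difference depends on the estimate used. Lamp1 and Lamp2 encode the main glycoproteins of the lysosomal membrane. Lamp2 (chrX:38401357-38456454) was at 48.3, 54.3 and 58.8 TPM, and Lamp1 (chr8:13159161-13175338) at 12.2, 9.96 and 9.78 TPM. The ratio of Lamp1 to Lamp2 was 0.201 ± 0.0459.

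Lamp2 RNA was split between splice forms with different roles. The forms share the luminal part and differ in the last exon, which encodes the membrane anchor and the cytosolic tail. LAMP-2A is the receptor of chaperone-mediated autophagy, in which single proteins are taken into the lysosome directly, while LAMP-2B acts in the fusion of autophagosomes with lysosomes. The last 36 coding bases with the stop codon are shown for the 3 forms because they identify them; the capitals mark the last 5 codons before the stop. They lie on the minus strand of chromosome X in mm10, at chrX:38405432-38405467, chrX:38421712-38421747 and chrX:38402139-38402174 in the order listed, and the form was named from the tail its frame encodes.
Lamp2-201 (form A): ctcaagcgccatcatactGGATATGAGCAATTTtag
Lamp2-202 (form B): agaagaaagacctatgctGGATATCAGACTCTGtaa
Lamp2-203 (form C): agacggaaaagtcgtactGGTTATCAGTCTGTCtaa
Form A held 54.0%, 43.2% and 42.2% of the Lamp2 TPM in replicates 1, 2 and 3, and form B 34.7%, 40.7% and 44.0%. Form A exceeded form B in replicates 1 and 2, form B exceeded form A in replicate 3, and their ranges overlapped. Form C held 1.46 ± 0.0751%. In the second transcript table form A held 45.2 ± 6.30% and form B 38.5 ± 3.83%. Form A, with a transcript of 1769 bases, and form B, with one of 3604 bases, differ in length, and replicate 1 gave the shorter one its highest share, as described for genes below.

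The promoter letters of the lysosomal genes differed. TFEB and TFE3 bind an E-box, CACGTG, which reads the same on both strands. Among promoter windows from 250 bases before to 50 bases after the start in RefSeq (GRCm38.p6), found for 32 of the 38 genes, CACGTG stood in 5, those of Atg14, Atg3, Atg5, Atg7 and Lamp1, against 8.09% of 27025 genes. The longer TCACGTGA stood in that of Atg3 alone, against 1.12% of genes, and the CLEAR element, an E-box with fixed flanking bases that TFEB is known to bind, in 0 of the 32 windows, against 0.37%. Lamp1 is shown because its window held 4 copies, at 61, 45, 28 and 15 bases before the start, while that of Lamp2, the more highly expressed gene, held 0. The bases run from 70 to 6 before the start, at chr8:13159091-13159155 on the plus strand, with CACGTG in capitals.
Lamp1 promoter: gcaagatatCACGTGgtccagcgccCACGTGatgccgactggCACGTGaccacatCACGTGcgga
These matches describe the letters of the windows and say nothing of binding.

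Over all steps, non-coding annotation was common among the leading transcripts. The transcript with the largest share was annotated as protein coding in 30 of the 38 genes and as something else in 8, or 21.1%, against 13.4% of the detected protein-coding genes. Besides those named above they were Rb1cc1-214, a nonsense-mediated decay transcript at 25.6 ± 5.26%, and Optn-203, a processed transcript of a gene with few counts. The median share of a gene's TPM in protein-coding transcripts was 76.3% for the 38 genes, against 86.3% for the detected protein-coding genes, and 9 genes had under 50%. Counted by protein-coding transcripts alone, 33 of the 38 genes were at or above 1 TPM in every library. No single transcript reached 60% in 21 genes. Apart from those given above, the leading transcripts there were Ambra1-203 at 52.0%, Atg9a-209 at 42.4%, Wipi1-202 at 59.0%, Wipi2-201 at 55.0%, Atg7-201 at 51.0%, Atg4b-203 at 27.3%, Atg4d-201 at 38.3%, Sqstm1-202 at 57.0%, Nbr1-206 at 30.5%, Tfeb-212 at 43.2% and Tfe3-205 at 28.9%. A single transcript held 90% or more in 9 genes, among them Lamp1-201 at 97.0 ± 3.35%.

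The leading transcript differed between the 2 transcript tables in 10 genes, or 26.3%, against 15.6% of the detected protein-coding genes. The second table led with Ulk2-203, a processed transcript, at 43.3%, Uvrag-205 at 33.1%, Atg2b-202, a retained intron, at 41.0%, Wipi1-201 at 46.2%, Atg4c-201 at 49.7%, Optn-205 at 36.8% and Tfe3-210, a retained intron, at 21.3%, besides the transcripts of Atg16l1, Map1lc3b and Gabarap given above. A protein-coding transcript led in 26 of the 38 genes there. Ulk2-201 and Atg4c-203 led in the first table at 60.1% and 66.3%.

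To set the spread between libraries against counting error, each gene's counts were tested for equal shares of the 3 libraries. The chi-square test of homogeneity used rounded expected counts against library totals scaled with edgeR's TMM factors, with Benjamini-Hochberg adjustment over 13071 genes of at least 30 counts. Of the 36 autophagy genes tested, 21 differed between libraries at an adjusted p under 0.05, which is 58.3%, against 54.5% of all genes tested. A difference of at least 1.5-fold between the highest and lowest library was added to the call for 10 genes, or 27.8%, against 25.1% of all. The median ratio of highest to lowest library was 1.30 for the genes of the list and 1.37 for all. Both shares were near those of the whole table.

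Replicate 1 set most of these differences, in both directions. Among the 36 autophagy genes tested, 10 were called with replicate 1 lowest, against 23.9% of all genes tested. Another 8 were called with it highest, against 24.2%. Of all genes tested, 7122 were called, 3122 of them with replicate 1 lowest and 3168 with it highest. Replicate 1 was thus the lowest or highest library for most called genes, in the list and over all genes. At 1.5-fold or more, 5 of the 36 were lowest in replicate 1, against 11.5% of all, and 4 were highest, against 10.5%. Without replicate 1, only 3 of 35 genes tested differed, against 17.2% of all, and only Atg4c by 1.5-fold or more, against 4.96% of all. Without replicate 2 the 1.5-fold count was 6 of 35, against 19.2% of all.

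The 5 genes lowest in replicate 1 by 1.5-fold or more came from the lipid kinase, lipid supply and cargo steps, and their mean lengths ran from 3263 bases in Atg14 to 5078 bases in Atg2a. Ambra1 had scaled counts of 765, 1336 and 1266 in replicates 1, 2 and 3 (ratio 1.75, adjusted p = 7.37e-37, chi-square test with TMM scaling). Replicate 1 held 0.573 times the count of replicate 2 (95% exact binomial interval for counting error only, 0.524 to 0.626), while replicates 2 and 3 differed by 1.06 times (0.976 to 1.14). Atg2a had 236, 409 and 419 scaled counts (ratio 1.77, adjusted p = 1.37e-12, same test). Nbr1 had 703, 1068 and 1086 (ratio 1.55, adjusted p = 8.67e-21, same test). For each of them replicates 2 and 3 lay close together and replicate 1 well below. Wipi2 had 244, 387 and 349 scaled counts (ratio 1.58, adjusted p = 2.34e-07, same test), and Atg14 had 240, 369 and 309 (ratio 1.54, adjusted p = 4.04e-06, same test). Atg16l1, at 186, 263 and 278, passed the test with a ratio of 1.498, just short of 1.5.

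The 4 genes highest in replicate 1 by 1.5-fold or more included 2 that encode ATG8 proteins, and their mean lengths ran from 998 bases in Gabarapl2 to 2181 bases in Lamp1. Gabarapl2 had scaled counts of 1305, 866 and 916 in replicates 1, 2 and 3 (ratio 1.51, adjusted p = 4.47e-24, chi-square test with TMM scaling). Gabarapl1 had 140, 115 and 83.3 (ratio 1.68, adjusted p = 0.00249, same test). Gabarap at 1.48 and Map1lc3b at 1.32 passed the test under 1.5-fold, also with replicate 1 highest. Lamp1 had 201, 125 and 132 scaled counts (ratio 1.61, adjusted p = 3.46e-05, same test). Atg10 had 148, 122 and 98.1 (ratio 1.51, adjusted p = 0.0148, same test). Atg4c, the other gene of the 10, had replicate 1 between the other libraries, with 33.3, 16.0 and 42.2 scaled counts (ratio 2.64, adjusted p = 0.00589, same test).

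Gene length moved with the difference of replicate 1. Over the 36 tested autophagy genes, Spearman's rho between length and the log2 ratio of replicate 1 to the mean of the other libraries was -0.613, and over 10897 tested protein-coding genes it was -0.549, both across genes that share the same libraries. The whole-number counts gave -0.644 for the autophagy genes. The 8 autophagy genes under 1700 bases had a median log2 ratio of 0.27, against 0.34 for 3153 protein-coding genes of that length. The 15 over 3000 bases had a median of -0.24, against -0.27 for 3514 protein-coding genes. When library scaling was done within 20 bins of gene length, 21 autophagy genes passed the test, against 44.7% of all genes, and 3 of them, Atg4c, Gabarapl1 and Lamp1, differed by 1.5-fold or more, against 16.4% of all. What made the libraries differ by length was not tested, nor was the part of other cells, whose marker sums are given above. By sum, the neutrophil, erythroid and plasma cell markers were highest in replicate 1, the last 2 lists nearly as high in replicate 3. Those of B cells, macrophages and monocytes, and progenitors were highest in replicate 3. Within the neutrophil list Mpo was highest in replicate 3. The plasma cell sum followed Jchain, at 98.5, 4.42 and 79.7 TPM in replicates 1, 2 and 3, and Mzb1, at 21.5, 8.31 and 13.7 TPM. The other markers of that list, Xbp1, Prdm1 and Sdc1, were all lowest in replicate 1, with Xbp1 at 8.20, 30.7 and 26.0 TPM.

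**Figure D3:**
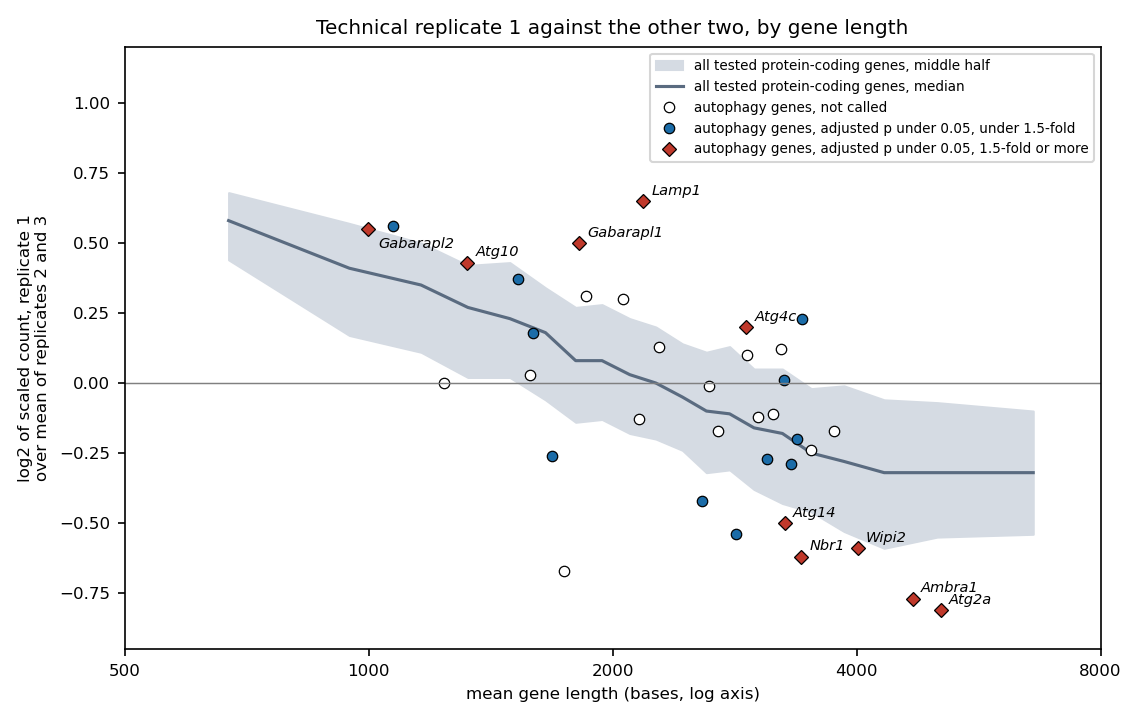
Log2 ratio of the scaled count in technical replicate 1 to the mean of replicates 2 and 3 against mean gene length (bases, log axis); the line and band are the median and quartiles of tested protein-coding genes in 20 bins of length, and symbols are the 36 tested autophagy genes. Ambra1 and Atg2a lie lowest among the long genes, and Lamp1 lies highest.

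A set of 5 genes was lower in the second gene table, 3 of them in the ATG8 family. That table differs from the first both in its annotation, GENCODE M4, and in holding whole-number instead of expected counts, and 35 of the 38 genes could be compared, Map1lc3a, Wipi1 and Optn having too few counts. After centring on the median gene, more than 2-fold lower counts in all 3 libraries were found for Wipi2 at 0.274 of the first table, Atg12 at 0.279, Map1lc3b at 0.280, Gabarapl1 at 0.340 and Gabarapl2 at 0.354. None of the 35 was more than 2-fold higher. Among 10091 genes compared, 13.8% differed, with 12.6% lower and 1.17% higher in the second table. Map1lc3b had 1705, 1238 and 996 counts in the second table against 4446, 3785 and 3219 expected counts in the first, while Gabarap had 2339, 1669 and 1509 against 1863, 1357 and 1210. After centring, Gabarap stood at 1.04, 1.03 and 1.02 times its first-table value in replicates 1, 2 and 3, and Map1lc3b at 0.318, 0.274 and 0.252 times. What the tables did differently with these genes was not tested.

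**Figure D4:**
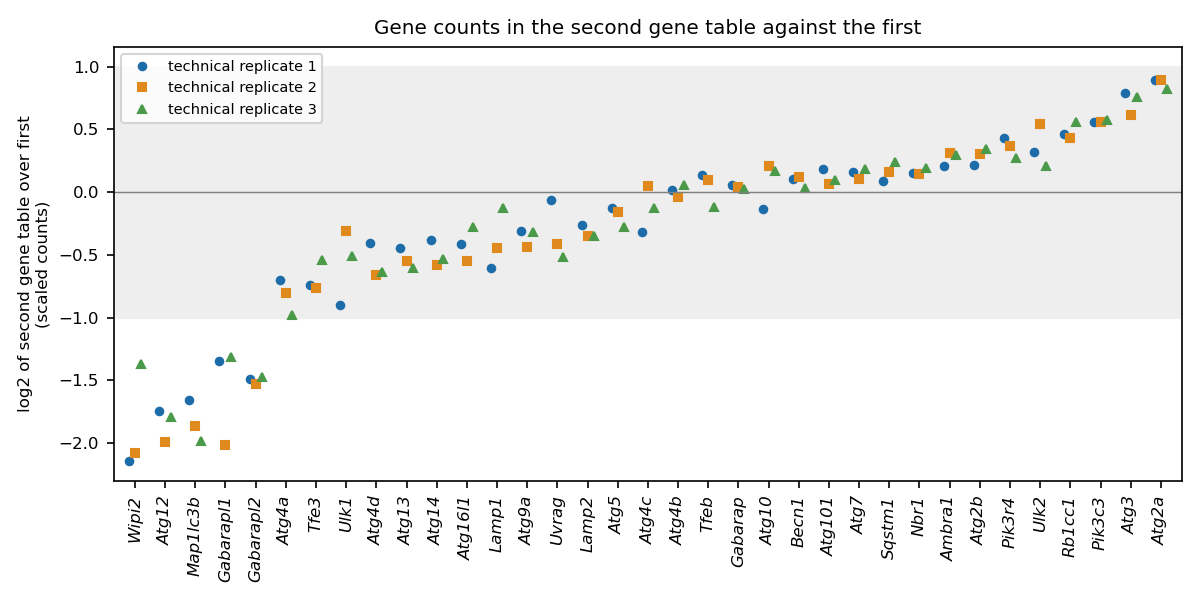
Log2 ratio of the second gene table (GENCODE M4, whole-number counts) to the first (GENCODE M21, expected counts) for 35 genes in the 3 technical replicates, after scaling to library totals and centring on the median gene; the grey band spans 2-fold in either direction. Wipi2, Atg12, Map1lc3b, Gabarapl1 and Gabarapl2 lie below the band in all 3 libraries.

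The wider pathway was also expressed. Of 98 further genes in 6 lists, 92 were at or above 1 TPM in every library. The 16 proton pump subunits, which acidify the lysosome, were all detected with a median of 73.3 TPM, from Atp6v0a1 at 11.0 ± 4.03 TPM to Atp6v0e at 296 ± 32.7 TPM. All 16 differed between libraries by the same test, against 54.5% of all genes tested and 62.5% of those with 100 or more counts. Replicate 1 was highest for 13 (24.2% of all) and lowest for 3 (23.9% of all). Both shares of all genes cover every gene length, while replicate 1 ran higher in short genes, as given above. The part of length in the counts for the pump genes was not tested. At 1.5-fold or more 4 differed, against 25.1% of all genes. The 14 genes of autophagosome fusion were all detected, with a median of 34.8 TPM and Vamp8, the SNARE of the lysosomal side, highest at 271 TPM; the lowest was Vps18, a tethering subunit, at 8.62 TPM. Of the 14 tested, 9 differed between libraries, or 64.3% against 54.5% of all genes tested. Among the 14, 6 were called with replicate 1 lowest (23.9% of all) and 3 with it highest (24.2% of all). By 1.5-fold or more 2 differed, or 14.3% against 25.1%.

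Enzymes and membrane proteins of the lysosome were detected in 21 of 22 cases, with a median of 42.5 TPM. Psap, the precursor of the saposins, was highest at 299 TPM, and the tetraspanin Cd63 fell under 1 TPM at 0.78, 0.51 and 0.68 TPM in replicates 1, 2 and 3. Of the 21 tested, 15 differed between libraries, or 71.4% against 54.5% of all genes, and 3 by 1.5-fold or more, or 14.3% against 25.1%. Among the 21, 7 were called with replicate 1 lowest (23.9% of all genes tested) and 8 with it highest (24.2% of all). Other selective receptors had a median of 47.5 TPM with 13 of 14 detected. Bnip3l, a mitochondrial receptor also called NIX, reached 402 TPM, as high as Map1lc3b at 400 TPM, and Wdfy3 lay at 0.03 TPM. Of 13 tested, 10 differed, or 76.9% against 54.5% of all genes, and 1 by 1.5-fold or more, or 7.69% against 25.1%. Among the 13, 4 were called with replicate 1 lowest (23.9% of all) and 5 with it highest (24.2% of all).

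Nutrient sensing at the lysosome was detected in 15 of 18 genes with a median of 19.96 TPM. Lamtor2, a subunit of the Ragulator complex that anchors mTORC1, was highest at 192 TPM. The other members of the TFEB family were below 1 TPM. Mitf was at 0.21, 0.22 and 0.18 TPM and Tfec at 0, 0 and 0.16 TPM in replicates 1, 2 and 3. Fnip2, a partner of folliculin, was at 0.28, 0.46 and 0.51 TPM. Of 15 tested, 10 differed, or 66.7% against 54.5% of all genes, and 6 by 1.5-fold or more, against 25.1% of all genes. Among the 15, 6 were called with replicate 1 lowest (23.9% of all) and 4 with it highest (24.2% of all). The other core autophagy genes had a median of 20.8 TPM with 13 of 14 detected. Vmp1, a lipid scramblase of the endoplasmic reticulum, was highest at 352 TPM, and Rubcnl, which encodes the protein Pacer, was lowest at 0.75, 1.06 and 0.97 TPM. Of 14 tested, 7 differed, against 54.5% of all genes, and 3 by 1.5-fold or more, or 21.4% against 25.1%. Among the 14, 4 were called with replicate 1 lowest (23.9% of all) and 2 with it highest (24.2% of all). In none of these lists was the difference from all genes tested.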

How the data were processed

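Expected counts and TPM per gene and per transcript, and the percent of a gene's TPM per transcript, were deposited by the authors for mm10 with GENCODE M21, per the file headers and deposited readmes; a second transcript table (estimated counts and TPM) and a table of whole-number counts (GENCODE M4) were also used as deposited. Programs and their versions, and whether strand was used, are not given in the sources used; column names are those that RSEM and kallisto write. Expected counts were rounded. Rows that name no mouse gene of the annotation (spike-ins, tRNA-like rows) were left out, 0.117%, 0.124% and 0.135% of counts in replicates 1, 2 and 3. Levels are means of deposited TPM, with SD. Counts were scaled with edgeR 4.0.16 (R 4.3.3) TMM factors and tested by a chi-square test of homogeneity (scipy 1.17.1) with Benjamini-Hochberg adjustment at 0.05; DESeq2 1.42.0 size factors were an alternative. The test was also run on counts of 13099 genes simulated with Poisson counting error alone, with replicate 1 raised in some. It called 63 of 100 genes changed 1.5-fold, 84 of 100 changed 2-fold and 6 of 12899 unchanged genes. The simulation held no further spread between libraries, so it gives no rate of false calls in these data. Intervals and counts cover counting error only. Values in each library are given for the highest and lowest gene of a step, genes under 1 TPM in any library and genes called at 1.5-fold; Ulk1, Atg16l1 and Gabarap were added after their values were seen. The coding end of Map1lc3b is not reported here. Members, lists and tests were chosen with earlier results of these data known.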

Additional observations from a re-analysis of the deposited data

How the results depend on the processing

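The count of detected genes, the count of neighbours with ranges apart (18, and 15 to 25 under the alternatives), the Lamp1 to Lamp2 ratio and the count of protein-coding leading transcripts moved by less than 1.5 times (counts) or 1 SD (ratio) under every alternative run for them. Over protein-coding transcripts the order itself changed in the lipid kinase, lipid supply and conjugation steps. The median level of 15.4 TPM was 18.9 over detected genes only, 9.64 in the second transcript table, 17.1 there after centring on the median ratio between the tables, and 9.55 over protein-coding transcripts. The 21 genes that differed between libraries ranged from 3 to 18 when 1 replicate was left out, and the 10 at 1.5-fold or more ranged from 1 to 8. With scaling in length bins the count at 1.5-fold or more was 3. At 1.5-fold, 8 genes differed between gene tables instead of 5. Ulk1/Ulk2 was 2.31 by posterior mean TPM and reversed to 0.817 in the second gene table. Atg2a/Atg2b was 1.84 in the second transcript table, 1.57 by posterior mean, 2.67 over coding transcripts and 2.09 in the second gene table. Atg4b over the other proteases was 1.64 in the second transcript table, 1.05 over coding transcripts and 2.17 in the second gene table. Map1lc3b/Map1lc3a was 116 in the second gene table. GABARAP over LC3 genes was 0.659 over coding transcripts and 2.55 in the second gene table. Tfe3/Tfeb was 1.82 in the second transcript table, 1.05 by posterior mean, 1.58 over coding transcripts and 1.80 in the second gene table. The cause was not tested. Alternatives over coding transcripts, ratios from the second gene table and the centred median were chosen after seeing the data. Wipi2/Wipi1 was not recomputed, since Wipi1 rests on few counts. Depth left Wipi1 and Map1lc3a, with under 30 counts over the 3 libraries, out of the test. No paired analysis was possible because there is only 1 group.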
